A study of Mus musculus with 8 samples.

Results

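The integrated stress response is described here through 10 mouse genes: the transcription factors Atf4, Ddit3, Atf3, Cebpb and Nupr1, the feedback regulators Ppp1r15a and Trib3, and the targets Chac1, Asns and Ddit4. They were found by gene symbol in the array's annotation, which gave 16 probe sets among 22690 on the array. All 10 genes, through 15 of the 16 probe sets, passed the filter on low signals and were tested among 7340 genes. The genes were chosen with their changes from 0 h on these same arrays known, so those changes, and the differences between later times that they add up to, are given as a description, without p-values, and support nothing further.

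The study measured messenger RNA in MCE301 cells, a mouse colonic epithelial line from animals carrying a temperature-sensitive SV40 large T-antigen. Cells were exposed to 2 mM sodium butyrate (SB), a histone deacetylase inhibitor that gut bacteria make by fermentation and colonic epithelium burns as fuel, for 0, 6, 12 or 24 h. Each time had 2 arrays (replicates 1 and 2), 8 in all, and every array came from this one line and so carried the same T-antigen. No arrays of untreated cells at 6, 12 or 24 h were analysed here, so butyrate and time in culture cannot be told apart. Nothing in the labels says that the arrays of 1 time are separate cultures, and p-values therefore cover the spread of these arrays alone, possibly a technical one. The sources used here do not give the culture temperature.

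When cells meet amino acid shortage, unfolded protein in the endoplasmic reticulum, haem shortage or viral RNA, kinases phosphorylate the translation initiation factor eIF2. Most translation then falls while that of Atf4 rises, so ATF4 protein can increase without more Atf4 messenger RNA. ATF4 pairs with C/EBP proteins on DNA and raises genes of amino acid supply and of stress adaptation, among them Ddit3, Atf3, Trib3, Chac1 and Asns in most mammalian cells. PPP1R15A, also called GADD34, brings a phosphatase back to eIF2, and TRIB3 restrains ATF4 and CHOP, the product of Ddit3.

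The sequences before the gene starts are shown because the elements that ATF4, C/EBP and AP-1 proteins bind lie in such regions. They are RefSeq sequences of build GRCm38.p6, 5′ to 3′ on the gene's strand and ending at the base before the annotated start, and all 10 genes had a window of 250 bases. Capitals mark letters that match one of 3 motifs, searched on both strands: the composite C/EBP-ATF element TGATGNAA, the cAMP response element TNACGTCA and the AP-1 element TGANTCA. The first pair are the whole windows of Ddit3 (chr10:127290543-127290792, plus strand) and Nupr1 (chr7:126625471-126625720, minus strand), which moved furthest in opposite directions.
Ddit3: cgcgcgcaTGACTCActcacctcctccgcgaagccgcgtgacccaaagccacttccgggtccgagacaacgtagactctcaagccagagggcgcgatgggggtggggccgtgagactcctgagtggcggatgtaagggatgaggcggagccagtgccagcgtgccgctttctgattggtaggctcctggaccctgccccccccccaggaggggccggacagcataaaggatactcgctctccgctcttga
Nupr1: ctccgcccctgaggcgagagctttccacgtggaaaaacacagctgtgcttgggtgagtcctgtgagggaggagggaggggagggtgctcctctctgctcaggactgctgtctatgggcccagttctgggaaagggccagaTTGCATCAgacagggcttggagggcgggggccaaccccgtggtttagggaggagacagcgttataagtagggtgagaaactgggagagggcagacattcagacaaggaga

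The stretches around the matches of the other genes that had any were Atf3 (chr1:191183334-191183455, minus strand), Chac1 (chr2:119351037-119351068, plus strand), Asns (chr6:7693213-7693244, minus strand) and Ppp1r15a (chr7:45526269-45526292, minus strand).
Atf3: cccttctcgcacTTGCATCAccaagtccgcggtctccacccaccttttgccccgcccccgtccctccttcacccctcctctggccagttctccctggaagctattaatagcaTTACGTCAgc
Chac1: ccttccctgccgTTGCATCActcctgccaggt
Asns: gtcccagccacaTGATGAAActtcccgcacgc
Ppp1r15a: ccgcctctccggTGACGTCAgcac

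The composite element was matched in 4 of the 10 windows, those of Atf3, Chac1, Nupr1 and Asns, against 3.45% of all 32851 windows in the table. In Atf3, Chac1 and Nupr1 the same 8 letters stood, on the opposite strand of the motif. The cAMP response element was matched in Atf3 and Ppp1r15a (2.52% of all windows), within 12 bases of the start in both. The AP-1 element was matched in Ddit3 alone (6.75% of all windows), 242 to 236 bases before the start. The windows of Atf4, Trib3, Cebpb and Ddit4 held none of these letters. The motifs were chosen with the sequences in view, and a match is a description of letters, not of binding.

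The trimmed mean signal, without 2% of the values at each end, was 500.2 on all 8 arrays, which shows a common scaling of the deposited signals. The arrays of a time correlated at r = 0.973 to 0.98 across probe sets, which are not independent. Of 8 epithelial markers, 7 (among them Krt8, Krt18, Epcam and Cdh1) were above the median of all signals, 144.7, on all 8 arrays, while Vil1 was above it on none (2.8 to 40.7). None of 3 leukocyte and 3 endothelial markers was above that median on any array. Of 5 mesenchymal markers only Vim was, on 2 arrays. The summed signal of all 4 marker lists was higher at 24 h without overlap: 76042 to 94544 at 24 h and 46622 to 51329 at 0 h for the epithelial list, 504.1 to 566 and 184.6 to 311.7 for the mesenchymal, 96.8 to 141.7 and 68.8 to 95.8 for the leukocyte, and 171.5 to 204 and 82.3 to 124.8 for the endothelial. The part of these signals in the results below was not tested. In such bulk samples fewer cells that express a gene and less of its RNA per cell cannot be told apart.

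Across the members the response was split. Ddit3 and Atf3 had climbed several-fold by 6 h, Chac1 was moderately higher from 6 h and Cebpb from 12 h, and Nupr1 had fallen to about its lowest level by 6 h. Trib3 was called lower at 6 h and Asns at 24 h. Atf4, Ppp1r15a and Ddit4 were not called at any time in the main fit, which did not use the replicate number. With the replicate number as a block, Atf4 was called lower at 24 h, Ddit4 lower at 6 h and Trib3 lower at 12 h too. Signals below are the deposited linear values of the gene's probe set with the highest mean. Changes are differences of log2(signal + 32) ± the standard error of the fit, later time minus earlier, and "called" means a Benjamini-Hochberg adjusted p under 0.05 over all 7340 genes in limma. The plot of signals by hour shows every array.

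**Figure D1:**
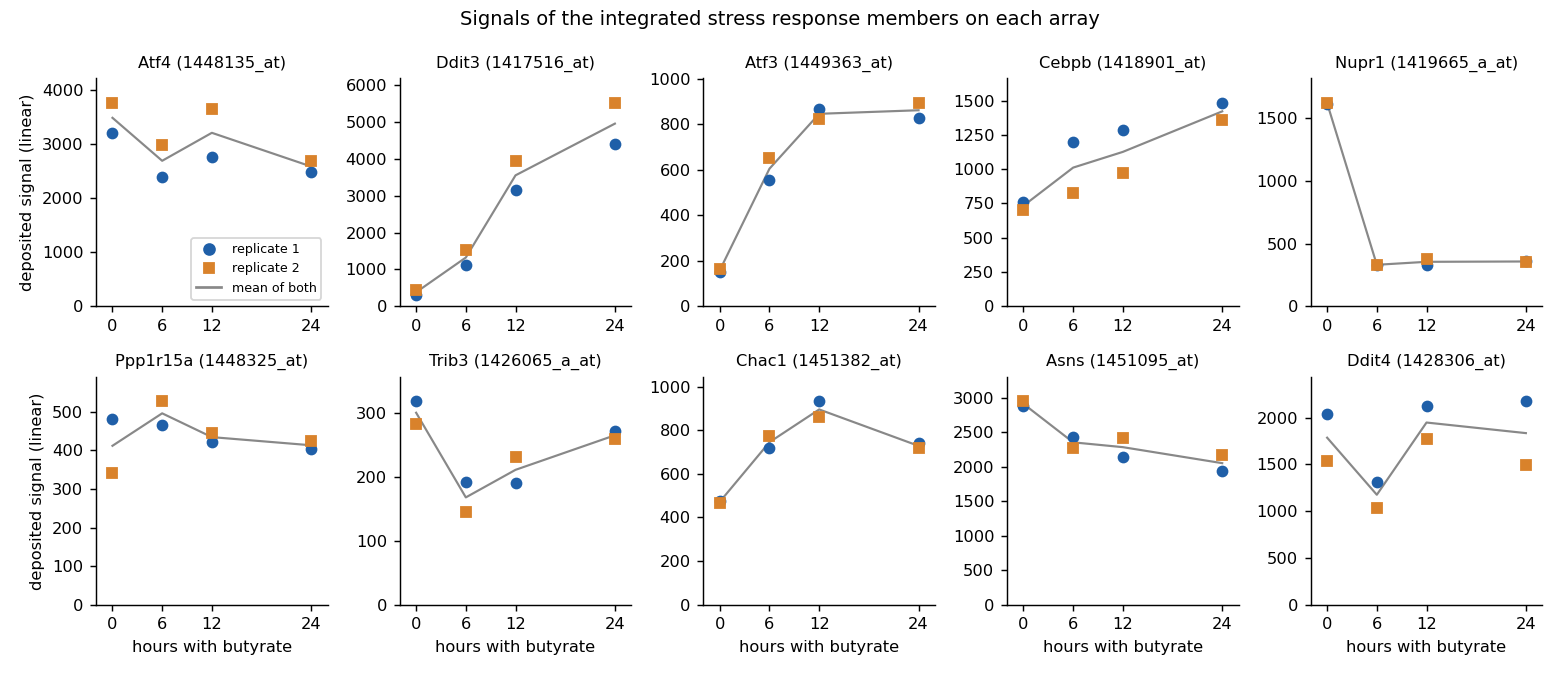
Deposited linear signal of each member's probe set on each of the 8 arrays, against hours with butyrate, circles for replicate 1, squares for replicate 2 and a line through the means of 2. Ddit3 has 4392.9 and 5523.4 at 24 h, against 310 and 446.6 at 0 h, Nupr1 lies between 328.4 and 376.2 at every time after 0 h, and the panels have separate vertical axes because signals of different probe sets are not comparable.

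Atf4, the factor at the head of the response, did not change by a called amount. Its signals were 3211.9 and 3767.4 at 0 h, 2392.5 and 2994.3 at 6 h, 2765.2 and 3658.6 at 12 h, and 2483.5 and 2691.5 at 24 h. The 6 and 24 h arrays all lay below the 0 h arrays, and the 12 h arrays overlapped them. The log2 change from 0 h was -0.37 ± 0.19 at 6 h, -0.13 ± 0.19 at 12 h and -0.42 ± 0.19 at 24 h, and the 95% intervals reached no higher than 0.30, at 12 h. With the replicate number as a block, Atf4 was called lower at 24 h, with an interval of -0.74 to -0.11. A second probe set, of the kind whose probes can bind other transcripts too, had changes of -0.34 ± 0.33, -0.20 ± 0.33 and 0.01 ± 0.33, and one more had signals of 8.7 to 36.9 and did not pass the filter.

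Ddit3, which encodes CHOP, a C/EBP-related factor linked to cell death under lasting stress, had the largest change among the members. Its signals were 310 and 446.6 at 0 h, 1128.8 and 1512.5 at 6 h, 3168 and 3939.5 at 12 h, and 4392.9 and 5523.4 at 24 h. Both arrays of each time lay above both of the time before. Relative to 0 h this was 3.31-fold at 6 h, 8.81-fold at 12 h and 12.3-fold at 24 h, with log2 changes of 1.73 ± 0.22, 3.14 ± 0.22 and 3.62 ± 0.22. By size it ranked 24 of 7340 genes from the top at 6 h, 4 at 12 h and 5 at 24 h.

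Ddit3 was also the one member called between neighbouring times. It rose between 6 and 12 h, with means of 3554 ± 546 at 12 h and 1321 ± 271 at 6 h (SD, n = 2 arrays each), a log2 change of 1.41 ± 0.22. Leaving out 12 h replicate 2 gave 1.26 and leaving out 6 h replicate 1 gave 1.21, neither of them called, and neither was the fit with no filter on low values. From 12 to 24 h the change was 0.48 ± 0.22, with an interval of -0.02 to 0.97. In log2 terms, 47.8% of its 24 h change was present at 6 h and 86.8% at 12 h.

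Atf3, a stress-induced bZIP factor that mostly represses transcription as a homodimer, was higher at every later time and levelled off sooner. Its signals were 151.4 and 164.6 at 0 h, 557.5 and 653.1 at 6 h, 870.1 and 823.5 at 12 h, and 829.8 and 895.1 at 24 h. All later arrays were above both 0 h arrays, and the 12 and 24 h arrays overlapped each other. The log2 changes from 0 h were 1.74 ± 0.16, 2.21 ± 0.16 and 2.23 ± 0.16, so that 78.0% of the 24 h change was reached at 6 h. The step from 6 to 12 h was 0.47 ± 0.16 and that from 12 to 24 h was 0.03 ± 0.16, neither called.

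Cebpb, a C/EBP factor able to pair with ATF4 and with CHOP, was called higher at 12 and 24 h. Its signals were 762.4 and 704.3 at 0 h, 1199.4 and 823.6 at 6 h, 1283.4 and 969.2 at 12 h, and 1484.4 and 1359.9 at 24 h. Every later array was above both 0 h arrays, although replicates 1 and 2 stood far apart at 6 and 12 h. The log2 change was 0.42 ± 0.21 at 6 h, 0.59 ± 0.21 at 12 h and 0.93 ± 0.21 at 24 h. The 12 h call was marginal: it went without 0 h replicate 1 (0.64), without 0 h replicate 2 (0.53), without 12 h replicate 1 (0.39), with a pseudocount of 8, with no filter, and with all named probe sets. A second probe set had 426.8 and 546.6 at 24 h, against 332 and 286.2 at 0 h. Its log2 changes were smaller, 0.04 ± 0.21 at 6 h, 0.20 ± 0.21 at 12 h and 0.60 ± 0.21 at 24 h. In the fit of all named probe sets it was called at 24 h alone.

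Nupr1, which encodes a small chromatin-associated stress protein that ATF4 and CHOP are known to induce in other cells, went the opposite way. Its signals were 1617.9 and 1623.4 at 0 h, 332.1 and 328.4 at 6 h, 331.8 and 376.2 at 12 h, and 360.6 and 352.7 at 24 h. The fall was as large at 6 h as later: the arrays at 6, 12 and 24 h lay far below 0 h and close to each other. Relative to 0 h it was 4.56-fold lower at 6 h, 4.29-fold at 12 h and 4.25-fold at 24 h (log2 changes of -2.19 ± 0.15, -2.10 ± 0.15 and -2.09 ± 0.15). Counted from the largest fall among the 7340 genes it ranked 3 at 6 h, 16 at 12 h and 93 at 24 h. Between 6 and 12 h the change was 0.09 ± 0.15, and between 12 and 24 h it was 0.01 ± 0.15, with an interval of -0.32 to 0.34. The second probe set gave -1.88 ± 0.31, -1.94 ± 0.31 and -2.05 ± 0.31 against 0 h. In the fit of all named probe sets it was called lower at all 3 times.

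Ppp1r15a, the eIF2 phosphatase subunit that ends the response, was not called at any time. Its signals were 482.2 and 341.3 at 0 h, 465.1 and 526.5 at 6 h, 422.4 and 446 at 12 h, and 402.8 and 423.3 at 24 h. The 0 h arrays overlapped those of every later time. The log2 changes from 0 h were 0.27 ± 0.18, 0.09 ± 0.18 and 0.02 ± 0.18, and the 24 h interval ran from -0.38 to 0.43.

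Trib3, a pseudokinase that is itself a target of ATF4 and CHOP, was lower at 6 h. Its signals were 317.5 and 282.3 at 0 h, 191.2 and 144.2 at 6 h, 190.6 and 230.9 at 12 h, and 270.8 and 258.6 at 24 h. All later arrays were below both 0 h arrays, and the mean was lowest at 6 h, where the arrays overlapped those of 12 h. The log2 change was -0.74 ± 0.18 at 6 h, -0.45 ± 0.18 at 12 h and -0.16 ± 0.18 at 24 h, called at 6 h alone. That call was undone without 0 h replicate 1 (-0.66), without 0 h replicate 2 (-0.82), without 6 h replicate 2 (-0.57) and with no filter, and the replicate block added a call at 12 h (interval of -0.82 to -0.09). The second probe set had 285.3 and 170.2 at 24 h, against 147.9 and 151.9 at 0 h. Its log2 change of -0.80 ± 0.35 at 6 h and 0.48 ± 0.35 at 24 h was not called in the fit of all named probe sets.

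**Figure D2:**
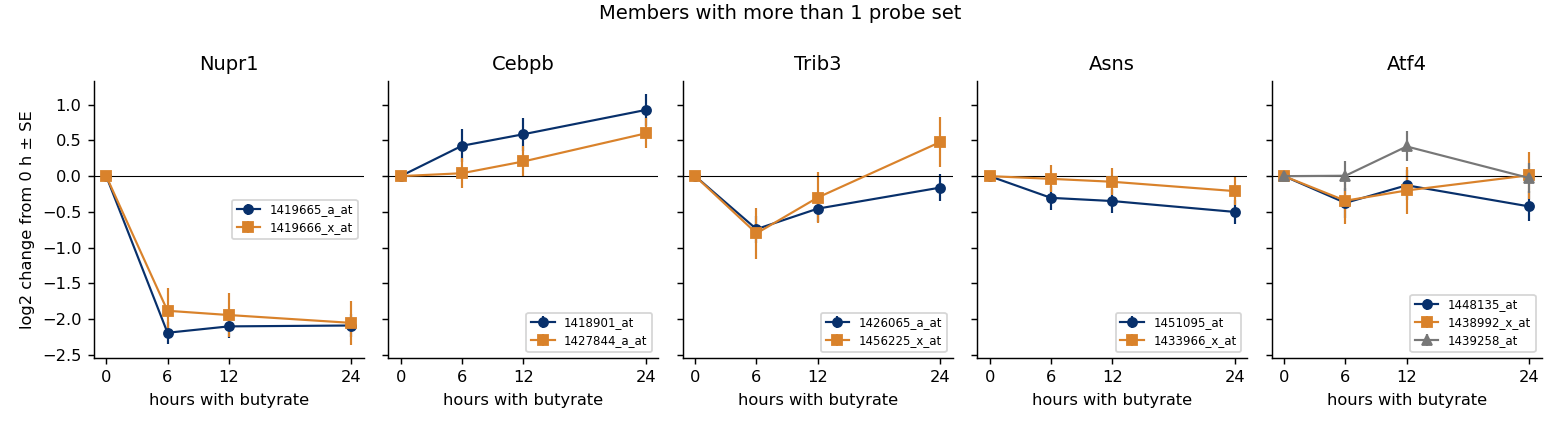
Log2 change from 0 h ± SE of each probe set of the 5 members with more than 1, against hours with butyrate, with the probe set of the highest mean in dark blue. The SEs are those of a fit of every named probe set with no filter. Both Nupr1 probe sets fall by about the same amount at 6 h, and the Trib3 probe sets have opposite signs at 24 h (-0.16 and 0.48).

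Chac1, an enzyme that degrades glutathione and a target of ATF4, was called higher at all 3 later times. Its signals were 475.7 and 468.5 at 0 h, 718.6 and 771.8 at 6 h, 931.6 and 858.5 at 12 h, and 739.9 and 716.4 at 24 h. The arrays of the later times did not overlap the 0 h arrays, and the 12 h arrays were the highest. The log2 changes from 0 h were 0.62 ± 0.15, 0.88 ± 0.15 and 0.59 ± 0.15. The log2 change between 12 and 24 h was -0.29 ± 0.15, not called. The 6 h call was undone without 0 h replicate 1 (0.63) or 2 (0.61), without 6 h replicate 1 (0.67) or 2 (0.57), and with no filter.

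Asns, asparagine synthetase, a classic ATF4 target in amino acid shortage, was lower at 24 h. Its signals were 2875.9 and 2945.9 at 0 h, 2431.5 and 2276.1 at 6 h, 2146 and 2421.9 at 12 h, and 1931.3 and 2172.7 at 24 h. Every later array was below both 0 h arrays. The log2 changes were -0.30 ± 0.16, -0.35 ± 0.16 and -0.50 ± 0.16, called at 24 h alone. Leaving out 0 h replicate 1 (-0.52), 0 h replicate 2 (-0.48) or 24 h replicate 1 (-0.42) undid that call, as did testing with no filter. Without either 0 h array the change itself stayed close to -0.50, in a fit with 1 array left at 0 h. The second probe set overlapped 0 h at each time and had a log2 change of -0.21 ± 0.19 at 24 h.

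Ddit4, also called REDD1, an inhibitor of mTORC1 that ATF4 and hypoxia can induce, had its lowest signals at 6 h, without a call. Its signals were 2037.2 and 1532.7 at 0 h, 1315.7 and 1034.7 at 6 h, 2119.2 and 1774.3 at 12 h, and 2171.7 and 1495.6 at 24 h. The 6 h arrays lay below those of both neighbouring times, and replicate 1 was the higher array at every time. The log2 change was -0.59 ± 0.23 at 6 h against 0 h and 0.72 ± 0.23 at 12 h against 6 h. With the replicate block both were called, with intervals of -0.90 to -0.28 and 0.41 to 1.03.

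**Figure D3:**
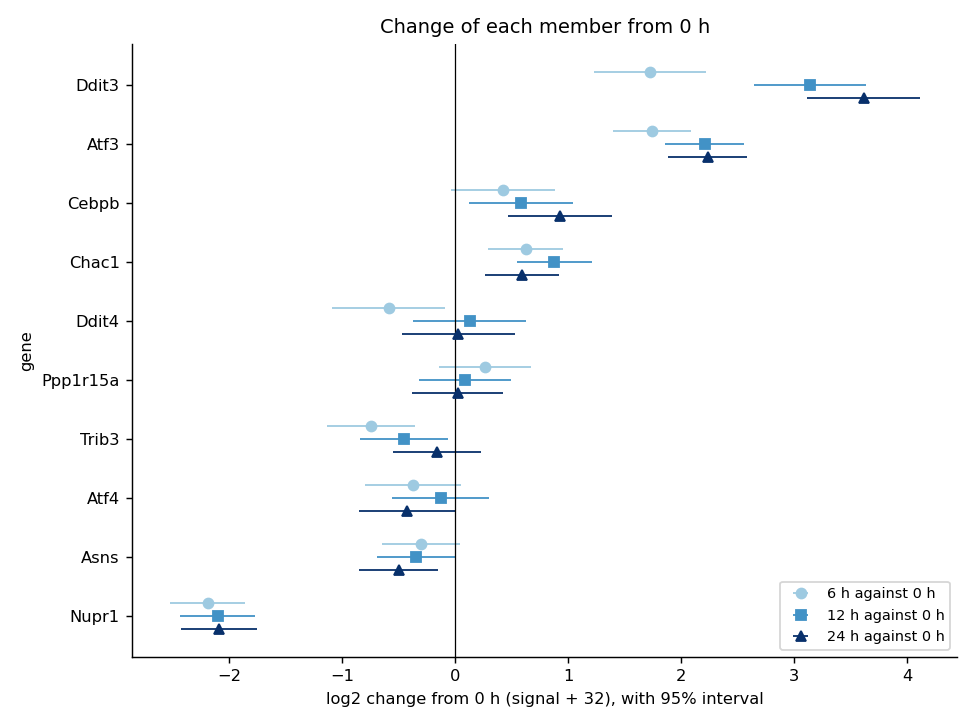
Log2 change of each member from 0 h at 6 h (circles), 12 h (squares) and 24 h (triangles), with 95% intervals from limma, the genes ordered by the 24 h change. Ddit3 and Atf3 lie at 1.73 or above at all 3 times, Nupr1 lies at -2.09 or below, and the intervals of Ppp1r15a cross 0 at each time.

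Of the 10 members, 3 were called higher at 6 h (Ddit3, Atf3 and Chac1) and 2 lower (Nupr1 and Trib3), where 9.06% and 6.68% of the 7340 genes were called higher and lower, 15.7% in all. At 12 h 4 were called higher, with Cebpb added, and 1 lower, Nupr1, beside 18.1% and 17.5% of all genes, 35.6% in all. At 24 h the same 4 were called higher and 2 lower, Nupr1 and Asns, beside 24.6% and 23.5%, 48.1% in all. The median log2 change of the members was -0.02, 0.11 and 0.03 at 6, 12 and 24 h, and that of all genes 0.01, 0.03 and 0.04, while single members ran from -2.19 to 1.74, from -2.10 to 3.14 and from -2.09 to 3.62. The 3 comparisons share the 0 h arrays. The choice of members used these comparisons, so nothing is read from the counts.

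At 12 h against 6 h, 1 member was called higher and 0 lower, beside 2.03% and 2.14% of all genes (4.17% in all). At 24 h against 12 h, 0 members were called in either direction, beside 1.81% and 3.58% of all genes (5.4% in all). These differences follow from changes known when the members were chosen, so nothing is read from these counts either.

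A wider list of the pathway was set down from textbook knowledge, with earlier results of these data known. Of its 80 genes with a named probe set 74 passed the filter, and Cebpd, Slc7a11, Slc7a1, Slc7a3, Tnfrsf10b and Fgf21 did not. At 6 h 10 of the 74 were called higher and 4 lower (9.06% and 6.68% of all genes), at 12 h 12 and 13 (18.1% and 17.5%), and at 24 h 13 and 21 (24.6% and 23.5%). Leaving out 1 array left 2 to 7 higher and 1 to 3 lower at 6 h, 7 to 8 and 6 to 9 at 12 h, and 8 to 14 and 16 to 17 at 24 h. The groups below are too small to be read against those shares and are described by their genes. Of the called genes, Eif2ak4, Cebpa, Cth, Gpt2, Klhl24 and Vegfa had no 0 h array, and Stc2 no 6 or 24 h array, above the filter's median, so they were tested only through the times where they were high. For these 7 the p-values given over all arrays are those with no filter on low values, and those of other named alternatives keep the filter. The median log2 change of the list was 0.03, -0.02 and -0.16, against 0.01, 0.03 and 0.04 for all genes. The plot of gene groups at 24 h sets them beside the members.

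**Figure D4:**
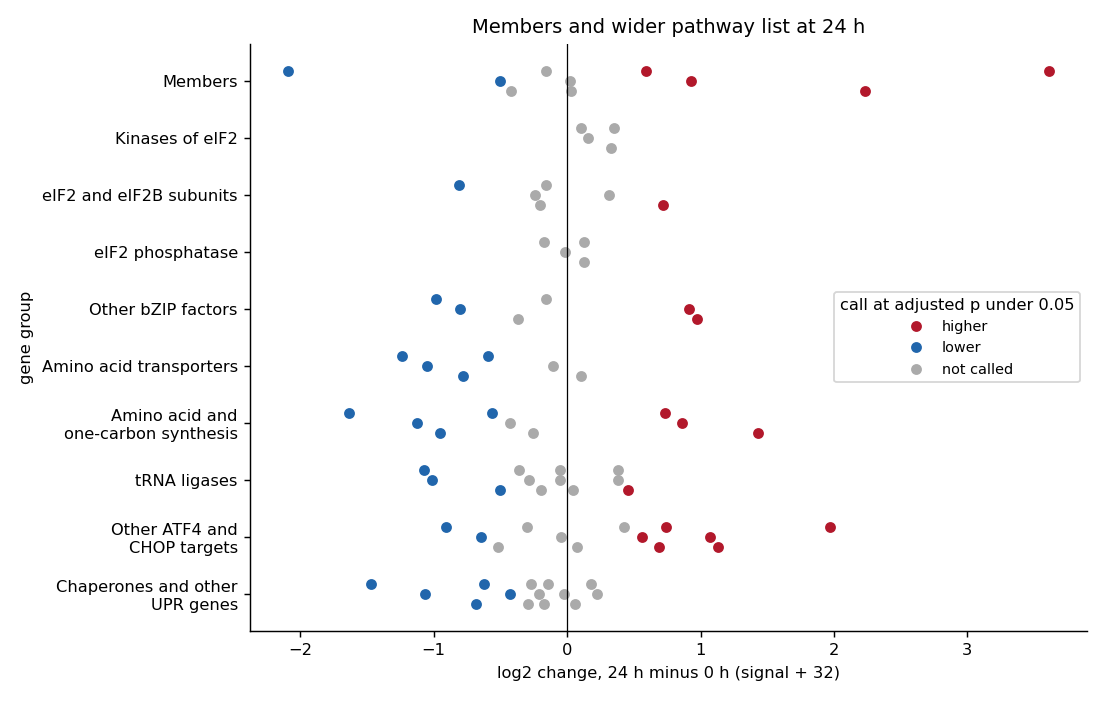
Log2 change at 24 h minus 0 h of the 10 members (top row) and of the 74 tested genes of the wider list, 1 point a gene, in 9 groups, coloured by the call at adjusted p under 0.05. The 4 called amino acid transporters and the 5 called chaperone and unfolded protein response genes all lie below 0, while the other ATF4 and CHOP targets have 6 called points above 0 and 2 below. Across all genes 24.6% were called higher and 23.5% lower, and the groups are too small to be read against those shares.

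Upstream of Atf4, of the 4 eIF2 kinases, Eif2ak4 (GCN2), which senses uncharged tRNA, was called higher at 6 h with the filter (log2 change 0.94 ± 0.23) but not without it (limma adjusted p = 0.0976), nor without 0 h replicate 1, 0 h replicate 2 or 6 h replicate 2 (0.0781 to 0.129). None of the 4 kinases was called at 12 or 24 h in limma, where 1 and 0 had an unadjusted p under 0.05. Eif2ak4 was called higher there in 2 other fits, that of only the 4 arrays compared at 12 h (adjusted p = 0.0231) and that without 24 h replicate 1 at 24 h (0.0254). Of 6 subunits of eIF2 and its exchange factor eIF2B, Eif2b2 was called higher at 12 and 24 h (0.62 ± 0.17 and 0.72 ± 0.17) and Eif2b4 lower at 24 h (-0.81 ± 0.18). Of 4 eIF2 phosphatase subunits, Ppp1r15b, the constitutive counterpart of Ppp1r15a, was called lower at 12 h alone (-0.48 ± 0.16). Leaving out 1 array undid the call of Eif2b2 (12 h replicate 1 or 2, or 0 h replicate 1, the last at 24 h too) and of Ppp1r15b (0 h replicate 1 or 2, or 12 h replicate 1), at adjusted p = 0.0506 to 0.231.

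Other bZIP factors moved both ways. Cebpa, a C/EBP factor of differentiated cells, rose to 225.6 ± 10 at 12 h, against 53.2 ± 16.3 at 0 h (SD, n = 2 each), a log2 change of 1.61 ± 0.31 (limma adjusted p = 0.0214 with no filter). With the filter it was called at 6 h (1.09 ± 0.31) and 24 h (0.92 ± 0.31) too, where its signal was 139.8 ± 91.1, but with no filter at neither (limma adjusted p = 0.138 and 0.0972). Atf6, the membrane-bound sensor of unfolded protein, rose at each time (0.98 ± 0.15, 0.58 ± 0.15 and 0.98 ± 0.15). Atf5, which like Atf4 is controlled at translation, fell at 12 and 24 h (-0.79 ± 0.20 and -0.98 ± 0.20), and Jdp2, a repressor of AP-1 sites, fell at the same times (-0.64 ± 0.16 and -0.80 ± 0.16). The 12 h calls of Atf5 (0 h replicate 2, 12 h replicate 1), Jdp2 (0 h replicate 1, 12 h replicate 1) and Atf6 (0 h replicate 1, 12 h replicate 1 or 2) were undone when the array in brackets was left out, at adjusted p = 0.0549 to 0.106.

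Genes of amino acid supply, the core ATF4 programme, included called falls and called rises. At 24 h, of 6 tested amino acid transporters 4 were called lower, beside 23.5% of all genes: Slc38a2, Slc6a9, Slc3a2 and Slc7a5. Slc38a2, a neutral amino acid carrier induced by amino acid shortage, was at 1474 ± 218 at 6 h and 3713 ± 239 at 0 h (SD, n = 2 each), a log2 change of -1.32 ± 0.17 (limma adjusted p = 0.00148), and was still lower at 12 h (limma adjusted p = 0.00174) and 24 h (-1.05 ± 0.17). Slc6a9, a glycine transporter, fell to 179.7 ± 4.24 at 12 h and 220.2 ± 1.98 at 24 h, against 566.8 ± 115 at 0 h (limma adjusted p = 0.000237 and 0.000326). Slc1a4, another neutral amino acid carrier of the list, was called higher at 6 h (0.70 ± 0.17) and 12 h (0.55 ± 0.17). With no filter it was called at neither (limma adjusted p = 0.0847 and 0.084). Slc7a5 was called higher at 6 h (0.61 ± 0.17) and lower at 24 h (-0.59 ± 0.17). Without any one of the 0 and 6 h arrays the first was not called (adjusted p = 0.0702 to 0.185), and without 0 h replicate 1 or 24 h replicate 2 the second was not (0.0977 and 0.0966).

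Of 9 enzymes of amino acid and one-carbon synthesis, 4 were called lower and 3 higher at 24 h, beside 23.5% and 24.6% of all genes. Those that fell were Shmt2 and Mthfd2, of mitochondrial folate metabolism, and Phgdh and Psph, of serine synthesis. Psat1, the other serine synthesis enzyme of the list, had a log2 change of -0.42 ± 0.18 and was not called (limma adjusted p = 0.0804, and 0.0256 with the replicate block). Shmt2 was at 547 ± 11.1 at 24 h and 1775 ± 289 at 0 h (SD, n = 2 each), a log2 change of -1.63 ± 0.17 (limma adjusted p = 4.85e-05). The probe sets of Shmt2 and Phgdh are of the kind whose probes can bind other transcripts too. The 3 that rose were Cth, which makes cysteine from cystathionine, and the aminotransferases Gpt2 and Got1. Cth was at 214.6 ± 31.1 at 24 h and 60.1 ± 18.5 at 0 h (log2 change 1.43 ± 0.19, limma adjusted p = 0.00269 with no filter). The calls of Psph (without 0 h replicate 2 or 24 h replicate 2) and Got1 (without 0 h replicate 1 or 24 h replicate 2) were undone at adjusted p = 0.0717 to 0.0802. Of 12 tRNA ligases 3 were called lower at 12 and at 24 h (Gars, Iars and Tars), beside 17.5% and 23.5% of all genes. Wars was called higher at 24 h (0.45 ± 0.16), beside 24.6% of all genes. The calls of Wars (0 h replicate 1 or 2, 24 h replicate 2) and of Iars at 24 h (any of the 4 arrays) were undone by leaving out 1 array, at adjusted p = 0.0572 to 0.193, as were those of Gars, Iars and Tars at 12 h by leaving out 0 h replicate 1 (0.0942 to 0.215). The replicate block further called Cars and Sars higher and Nars lower at 24 h (limma adjusted p = 0.0408, 0.0426 and 0.0448). None was called at 6 h in limma, where 2 had an unadjusted p under 0.05.

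Of 13 other ATF4 and CHOP targets, 6 were called higher and 2 lower at 24 h, beside 24.6% and 23.5% of all genes. Bcl2l11, which encodes the death-promoting BCL2 family member BIM and is a target of CHOP, was at 2841 ± 1187 at 6 h, 2267 ± 329 at 12 h and 3000 ± 1012 at 24 h, against 725.1 ± 145 at 0 h (SD, n = 2 each). Its log2 changes were 1.87 ± 0.30, 1.61 ± 0.30 and 1.97 ± 0.30 (limma adjusted p = 0.00348, 0.00267 and 0.000489). Gadd45a, a growth arrest gene, rose to 538.7 ± 4.53 at 24 h, against 228.9 ± 29.9 at 0 h (1.13 ± 0.22, limma adjusted p = 0.0018). Sqstm1, an autophagy receptor, and Lonp1, a mitochondrial protease, rose at 24 h (1.07 ± 0.16 and 0.74 ± 0.18). The other calls at 24 h were less firm. Klhl24 (0.56 ± 0.16) was higher with no filter too (limma adjusted p = 0.0414), but not without 0 h replicate 2 or either 24 h replicate (0.0534 to 0.0693). Vegfa (0.69 ± 0.23) was not called with no filter (limma adjusted p = 0.0879), nor without 0 h replicate 2 or 24 h replicate 2. Herpud1 (-0.65 ± 0.21) was not called without 0 h replicate 1 or 24 h replicate 2 (limma adjusted p = 0.248 and 0.162). Stc2, a secreted glycoprotein, fell at 24 h (-0.91 ± 0.21, limma adjusted p = 0.0241 with no filter), and at 6 h was called with the filter (-0.76 ± 0.21) but not without it (0.12). Ero1a was called higher at 6 and 12 h (log2 changes of 0.76 and 0.53), but with no filter at neither (limma adjusted p = 0.0749 and 0.106). Gadd45a was called higher at 6 and 12 h, the 6 h call being lost with no filter (limma adjusted p = 0.0946). The 6 h call was lost too without 0 h replicate 1 (0.99), 0 h replicate 2 (0.76) or 6 h replicate 2 (0.75). Without 0 h replicate 2 (0.86) or 12 h replicate 1 (0.65) the 12 h call was lost. At 12 h Sqstm1 was called higher and Vldlr lower.

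Of 14 chaperones and other genes of the unfolded protein response, 0 were called higher and 5 lower at 24 h, beside 24.6% and 23.5% of all genes. The 5 were Xbp1, Hsp90b1, Dnajc3, Manf and Sdf2l1. The calls of the last 3 were undone by leaving out 1 array, 0 h replicate 1 or either 24 h replicate for Dnajc3, 0 h replicate 2 or 24 h replicate 1 for Manf, and any of the 4 for Sdf2l1 (adjusted p = 0.053 to 0.198). Xbp1, the factor of the IRE1 arm, was at 789 ± 172 at 24 h and 2240 ± 455 at 0 h (SD, n = 2 each), a log2 change of -1.47 ± 0.26 (limma adjusted p = 0.00108). It was also lower at 12 h (-1.47 ± 0.26, limma adjusted p = 0.00184) and at 6 h (-0.85 ± 0.26, limma adjusted p = 0.0485). The 6 h call was lost with all named probe sets, no filter or a pseudocount of 8 (limma adjusted p = 0.0593, 0.159 and 0.0663). It was lost too without 0 h replicate 1 (-0.65), 0 h replicate 2 (-1.06) or 6 h replicate 2 (-0.56). Hsp90b1, an endoplasmic reticulum chaperone, fell between 12 and 24 h (-0.97 ± 0.15, limma adjusted p = 0.00519, and 0.0509 without 12 h replicate 2), and Hspa5, the chaperone BiP, was not called at 24 h (-0.29 ± 0.27). Creld2, a chaperone-like protein of the endoplasmic reticulum, rose at 6 h, to 2042 ± 63.7 against 970 ± 83.9 at 0 h (1.05 ± 0.21, limma adjusted p = 0.00942). That call was lost with no filter (limma adjusted p = 0.0549) and without 0 h replicate 1 (0.97). Manf, a secreted stress-induced protein, had a log2 change of 0.56 ± 0.17 at 6 h, not called (limma adjusted p = 0.052) but called under 5 alternatives, the replicate block among them (0.0255).

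Between neighbouring times, 2 of the 74 were called higher and 1 lower at 12 h against 6 h (2.03% and 2.14% of all genes), and 1 higher and 3 lower at 24 h against 12 h (1.81% and 3.58%), shares close to those of all genes. At 12 h against 6 h, Sqstm1 rose (0.73 ± 0.16, limma adjusted p = 0.0396) and Slc6a9 fell (-0.87 ± 0.18, limma adjusted p = 0.0289). With no filter neither was called (limma adjusted p = 0.151 and 0.131), nor with only the 4 arrays compared (0.0955 and 0.0638). Sqstm1 also lost its call with all named probe sets, a pseudocount of 8 or quantile normalization (limma adjusted p = 0.0529, 0.0531 and 0.0535). Cth (1.02 ± 0.19) was not called with no filter (limma adjusted p = 0.118), and neither was Klhl24 at 24 h against 12 h (0.72 ± 0.16, 0.106). At 24 h against 12 h, Hsp90b1, Shmt2 (-0.80 ± 0.17, limma adjusted p = 0.0245) and Slc7a5 (-0.79 ± 0.17, limma adjusted p = 0.0218) fell. Shmt2 and Slc7a5 were not called with no filter (limma adjusted p = 0.108 and 0.0964). Apart from Hsp90b1, each of these calls was lost without any one of the 4 arrays compared, with adjusted p-values of 0.0564 to 0.218.

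The genes whose changes from 0 h at 6, 12 and 24 h lay nearest to those of Ddit3 were Prtn3, a serine protease, Ckb, the brain-type creatine kinase, and Ramp3, a receptor partner, at root mean square distances of 0.28, 0.29 and 0.38 on the log2 scale over the 3 changes. Prtn3 had a mean signal of 10.9 at 0 h, below the pseudocount, so its distance depends on that choice. The genes nearest to Nupr1 were Sco2, an assembly factor of cytochrome c oxidase, Tlr3, a receptor for double-stranded RNA, and Tacc2, at distances of 0.08, 0.10 and 0.24. Tlr3 had means of 76.95, 97.9 and 79.95 at 6, 12 and 24 h, under the filter's median, and 487.8 at 0 h. It was therefore tested only through its 0 h arrays. Sco2 was at 196.3 ± 40.3 at 6 h, 182 ± 5.02 at 12 h and 192.4 ± 8.91 at 24 h, against 953.5 ± 69.9 at 0 h (SD, n = 2 each), lower from 6 h on. These distances use the comparisons with 0 h, which share arrays, and are a description.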

How the data were processed

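MCE301 RNA was measured on 8 Affymetrix Mouse Expression Array 430A arrays, 2 at each of 4 times, grouped by their titles. The deposited table holds a linear intensity (signal) for each probe set, used as deposited. The software and its version are not given in the sources used here. A 2% trimmed mean of 500.2 on each array shows that the authors scaled the arrays.

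The platform annotation named 1 gene for 20380 of 22690 probe sets (691 several, 1555 not listed, 64 controls). Probe sets above the median of all signals (144.7) on at least 2 of 8 arrays were kept, with 1 per gene, that of the highest mean. Among those named, the probe sets of Shmt2, Phgdh, Eif2b2, Wars, Vldlr and Krt8 are of the kind whose probes can bind other transcripts too. So are the second probe sets of Nupr1, Trib3 and Asns. All 8 arrays were fitted as log2(signal + 32) in limma 3.58.1 (R 4.3.3) by lmFit and eBayes (residual df 4, prior df 6.37), with Benjamini-Hochberg adjustment over 7340 genes. Fold changes on this scale understate changes of low signals. The fit was tested on simulated data whose arrays varied independently, so that test did not cover the pairing of replicates described below. Arrays give no depth: their number limits the precision.

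The members and lists were chosen with earlier results of these data known. Named beyond the members are the 3 largest called rises and falls of the wider list in each comparison, the 3 nearest genes by distance for Ddit3 and for Nupr1, and examples from each gene group that were chosen after their values were seen. All 4 times carry replicates 1 and 2, and the deviations of same-numbered arrays from their time means correlated between times at r = 0.14 to 0.386 across probe sets, over 0.1 in all 6 pairs of times, and so they pair the arrays by the data, not by the labels. The main fit left this pairing out, and the replicate block took it in. Calls are those of the main fit unless another is named. Changes and standard errors of second probe sets are from a fit of every named probe set with no filter. Alternatives were pseudocounts of 8 and 128, no filter, a mean of at least 300, quantile normalization, all named probe sets, trend and robust eBayes, only the 4 arrays compared, the replicate block, and leaving out each array.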

Additional observations from a re-analysis of the deposited data

Results flagged for a closer look

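Ddit3 is listed because its change from 0 h differed between 6 and 12 h: the log2 change at 12 h against 6 h was 1.41 ± 0.22, called in the fit over all genes, and both 12 h arrays lay above both 6 h arrays. Over the alternatives the value was 1.21 to 1.62, and 3 of them lost the call. The gene was chosen with its changes at both times known, so the difference is a description and no independent test.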

How the results depend on the processing

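Of the values of single members under the alternatives, 602 kept their direction and call, 22 lost a call, 4 gained one and 17 changed sign. All 17 were uncalled changes with 1 array left out. The log2 change then ran from -0.33 to 0.072 for Atf4, -0.14 to 0.32 for Ppp1r15a and -0.070 to 0.33 for Ddit4 at 12 h against 0 h, and from -0.21 to 0.25 for Ppp1r15a (-0.01 without 24 h replicate 2) and -0.24 to 0.29 for Ddit4 (-0.17 without 24 h replicate 1) at 24 h against 0 h. At 12 h against 6 h it ran from -0.10 to 0.42 for Cebpb (-0.04 without 1 array) and -0.13 to 0.041 for Asns, and at 24 h against 12 h from -0.028 to 0.078 for Atf3, -0.071 to 0.095 for Nupr1 and -0.37 to 0.16 for Ddit4. The replicate block called 2 members lower at 12 h against 0 h and 2 higher at 12 h against 6 h, and called 5 genes of the wider list lower at 12 h against 6 h and 5 lower at 24 h against 12 h. Against 0 h it added calls of Slc1a5, Cth and Manf (higher) and Dnajb9 (lower) at 6 h, of Calr (higher), Cebpg and Herpud1 (lower) at 12 h, and of Cars, Sars and Ero1a (higher) and Psat1, Nars and Vldlr (lower) at 24 h. Beyond these and the members named with a block above, it changed no other member's call.

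With 1 array left out, members called lower numbered 1 to 2 at 6 h and 1 to 2 at 24 h against 0 h, and those called higher at 12 h against 6 h 0 to 1. For the wider list, called higher and lower, the ranges were 2 to 7 and 1 to 3 at 6 h, 7 to 8 and 6 to 9 at 12 h, and 8 to 14 and 16 to 17 at 24 h against 0 h, 0 and 0 at 12 h against 6 h, and 0 and 0 to 2 at 24 h against 12 h. No filter gave 1 member lower at 6 h and 1 at 24 h against 0 h and 0 higher at 12 h against 6 h. For the wider list it gave 2 higher and 1 lower at 6 h and 8 lower at 12 h against 0 h, 0 and 0 at 12 h against 6 h, and 0 and 1 at 24 h against 12 h. The stricter filter left 1 member lower at 6 h, and 8 of the wider list higher at 24 h against 0 h. For the wider list, all named probe sets gave 2 lower at 6 h against 0 h, as did the 4 arrays compared alone, which also gave 0 and 0 at 12 h against 6 h. At 12 h against 6 h, 1 gene of that list was higher with all named probe sets, the smaller pseudocount, quantile normalization or the stricter filter, and 2 were lower with the larger pseudocount, the stricter filter or trend and robust eBayes. At 24 h against 12 h, 0 were higher with those last 3 settings, and 5 were lower with them or with quantile normalization. The cause was not tested beyond what fewer arrays or another number of tested genes fixes. With 2 arrays a time the number of arrays limits the precision, and signals under the pseudocount have no reliable fold.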
